A study of Mus musculus with 18 samples.

Results

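T cell receptor V gene segments were counted in FACS-purified regulatory T cells (Tregs) of the mouse, CD4+ T cells that carry the transcription factor Foxp3 and restrain immune responses. The members are the rows of a raw RNA-seq count table whose Ensembl identifier has a GENCODE symbol starting with Trav or Trbv, which gave 163 of 50600 rows. Of these, 35 are Trbv segments of the beta chain on chromosome 6 and the others are Trav segments of the alpha chain on chromosome 14, and the annotation gives 130 as functional V genes and 33 as pseudogenes. Each developing T cell joins 1 V segment to a J segment in the alpha chain, or to D and J segments in the beta chain, by recombination in the thymus. The V segment codes for most of the variable domain, including the loops that contact the MHC molecule, so the mix of V segments in a cell population is a coarse record of its receptor repertoire. V segments that carry dv in the symbol can also be joined in the delta chain of gamma-delta T cells.

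All mice were C57BL/6, and the study asked how loss of CD25, the alpha chain of the IL-2 receptor encoded by Il2ra, changes Tregs. The thymic samples came from mice aged 3 to 4 weeks, with 5 Foxp3/RFP reporter mice as WT and 5 CD25 flox/Foxp3-YFP/Cre mice as CD25 KO. In the latter, Cre driven from the Foxp3 locus removes an Il2ra exon after Foxp3 is turned on. These CD25 KO mice had received congenic WT splenocytes as neonates, so the KO cells were sorted by the YFP reporter away from donor Tregs. The splenic samples came from 4 CD25 WT reporter controls and, as CD25 KO, 4 animals with CD25 flox, Foxp3eGFP-Cre-ERT2 and R26Y alleles, all given tamoxifen at 7 to 10 weeks of age and used 10 to 14 days later. In the splenic model, cells that had already matured with CD25 lost it, whereas the thymic cells lost it during development. Tissue, model, age and the date in the library names differ together, so none of these can be told apart in a comparison of the tissues. Libraries held 17239774 to 32639570 counts, of which 2886 to 5283 fell on Trav and 6254 to 14894 on Trbv segments. Il2ra was lower in every CD25 KO library than in any WT library of its tissue, with 95.8 to 280 against 524 to 682 CPM (counts scaled to library size) in the thymus and 168 to 208 against 488 to 538 CPM in the spleen. Foxp3 was also lower in every CD25 KO library than in any WT library of its tissue. Its thymic range was 270 to 335 against 399 to 577 CPM, and its splenic range 204 to 239 against 322 to 345 CPM.

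The mouse Trav locus contains a large stretch that is present in several copies, and the letters d and n in a symbol mark segments of the additional copies. Here 111 Trav segments belonged to 40 groups of such copies. For each segment, every stretch of 75 bases (the length of a read) was searched in the transcripts of all other genes, and the share found nowhere else is its unique share. The V exons below are given because they show how closely the copies match, with the positions that differ within each pair in capitals. They were read from GENCODE transcripts on the plus strand of GRCm38, at chr14:53616623-53616914 for Trav12-2, chr14:52916135-52916426 for Trav12d-2, chr14:53132840-53133137 for Trav6n-6, chr14:53517069-53517366 for Trav6-6, chr14:53443552-53443839 for Trav7-3 and chr14:52744553-52744840 for Trav7d-3.
Trav12-2: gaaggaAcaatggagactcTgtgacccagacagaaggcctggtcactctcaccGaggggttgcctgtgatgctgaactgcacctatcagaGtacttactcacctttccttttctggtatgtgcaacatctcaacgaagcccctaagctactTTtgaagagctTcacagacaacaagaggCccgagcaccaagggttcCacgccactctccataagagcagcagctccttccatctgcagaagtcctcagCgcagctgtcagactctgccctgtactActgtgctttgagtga
Trav12d-2: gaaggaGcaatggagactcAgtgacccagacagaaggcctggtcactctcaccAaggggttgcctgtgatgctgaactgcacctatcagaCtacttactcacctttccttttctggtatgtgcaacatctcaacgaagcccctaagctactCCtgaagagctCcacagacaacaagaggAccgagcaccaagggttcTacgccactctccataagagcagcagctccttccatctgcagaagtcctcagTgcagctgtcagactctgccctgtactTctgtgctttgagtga
Trav6n-6: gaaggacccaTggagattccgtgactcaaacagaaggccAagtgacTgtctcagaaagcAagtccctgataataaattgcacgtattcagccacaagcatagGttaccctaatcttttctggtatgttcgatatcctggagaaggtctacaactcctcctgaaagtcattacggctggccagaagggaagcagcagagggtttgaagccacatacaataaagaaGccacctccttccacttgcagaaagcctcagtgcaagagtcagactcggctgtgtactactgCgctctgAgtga
Trav6-6: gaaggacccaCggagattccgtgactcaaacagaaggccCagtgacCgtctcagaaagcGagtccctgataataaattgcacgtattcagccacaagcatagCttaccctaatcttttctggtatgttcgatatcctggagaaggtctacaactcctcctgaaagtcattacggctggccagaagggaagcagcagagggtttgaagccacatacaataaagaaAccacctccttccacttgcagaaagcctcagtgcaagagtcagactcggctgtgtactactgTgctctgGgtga
Trav7-3: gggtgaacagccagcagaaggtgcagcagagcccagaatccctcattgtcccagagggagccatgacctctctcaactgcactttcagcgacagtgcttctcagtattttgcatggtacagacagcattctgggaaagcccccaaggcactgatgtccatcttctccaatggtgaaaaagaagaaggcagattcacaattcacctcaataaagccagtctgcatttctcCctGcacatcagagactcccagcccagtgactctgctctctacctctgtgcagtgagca
Trav7d-3: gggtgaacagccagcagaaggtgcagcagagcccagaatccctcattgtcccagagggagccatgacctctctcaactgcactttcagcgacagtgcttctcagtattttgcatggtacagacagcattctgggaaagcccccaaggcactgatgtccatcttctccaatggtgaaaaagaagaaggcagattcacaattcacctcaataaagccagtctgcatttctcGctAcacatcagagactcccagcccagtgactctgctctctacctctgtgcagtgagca

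Almost all counts lay on the copy with unique stretches in the Trav12-2 and Trav6-6 groups, and on both copies in the Trav7-3 group. Trav12-2 and Trav12d-2 differ at 11 of 292 positions, while Trav12d-2 and Trav12n-2 have the same V exon. Trav12-2, with a unique share of 90.1%, held 1688 counts over the 18 samples, and Trav12d-2 and Trav12n-2, with no unique stretch, held 0 each. In the Trav6-6 group the copy with n is the distinct member. Trav6n-6 differs from Trav6-6 at 8 of 298 positions and held 1201 counts, against 2 for Trav6-6 and 1 for Trav6d-6, whose V exons are the same. Trav7-3 and Trav7d-3 differ at 2 of 288 positions, have a unique share of 35.1% each, and held 842 and 353 counts.

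Over all members, 40 segments had no unique stretch, all of them Trav, and 38 of these had at most 3 counts in every sample. Of the 53 segments that were unique throughout, 9 had so few counts, all of them pseudogenes (8 Trbv and 1 Trav). The 40 segments without a unique stretch took 0.114% of the Trav counts, although 36 of them are annotated as functional. How reads that match several genes were counted is not given in the sources used here, and their part in these low counts was not tested, so a count near 0 in such a segment is no measure of its use. Among the 108 functional Trav genes, 39 had at most 3 counts in every sample, whereas this was so for 0 of the 22 functional Trbv genes, all of which were unique. Trav11, the segment of invariant NKT cells, and Trav11d were among the segments without a unique stretch, with 19 and 7 counts in all, so that their use could not be measured. Trav1, used by MAIT cells, was unique and took 0.468% ± 0.091 (WT) and 0.431% ± 0.14 (CD25 KO) of the Trav counts in the thymus, and 0.649% ± 0.17 (WT) and 0.562% ± 0.17 (CD25 KO) in the spleen, given as mean ± SD.

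**Figure D1:**
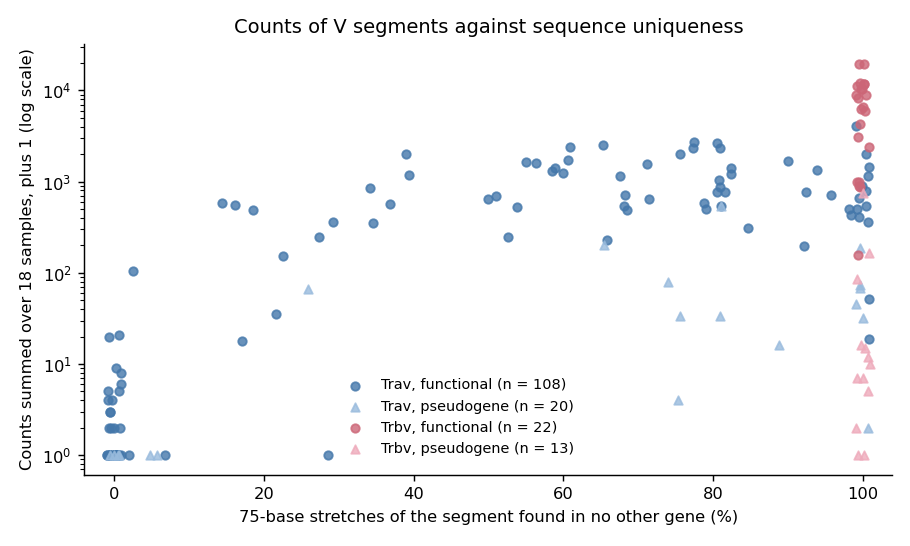
Counts summed over the 18 samples, plus 1 on a log axis, against the percentage of 75-base stretches of the segment found in no other gene, with 1 point for each of the 163 V segments (points are moved sideways by up to 1 percentage point to separate them). The 40 segments at 0% all lie at 20 counts or fewer, and the Trbv segments all lie at 100%.

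No segment was off in every sample of 1 group (at most 3 counts) and on in every sample of another (over 30 counts). The labels give C57BL/6 for all mice. Whether smaller allelic differences changed how reads of a segment were placed was not tested. In the text that follows, the share of a segment is its counts as a percentage of all counts of its chain in that mouse.

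Counts were spread over more segments in the alpha chain than in the beta chain. There are 108 functional Trav but only 22 functional Trbv genes, so the top 6 are a larger part of the Trbv segments. The 6 most used Trbv segments took 51.1% of the chain in thymic WT and 49.4% in splenic WT mice, against 27.3% and 21.1% for the 6 most used Trav segments. Trbv13-2 and Trbv3 led the beta chain. The Trbv13-2 share in the thymus was 11.3% ± 0.405 (WT) against 11.1% ± 0.662 (CD25 KO; mean ± SD, n = 5 each). The splenic values were 12.3% ± 0.656 and 12.49% ± 1.26 (n = 4 each), and all 18 mice lay between 9.95% and 14.3%. Trbv3 took 10.98% ± 0.297, 12.2% ± 0.267, 11.1% ± 1.20 and 12.2% ± 2.62 in the same order. Trbv19, Trbv2, Trbv16 and Trbv12-2 followed with group means between 6.25% and 8.79%. Per base of exon the order was Trbv13-2, Trbv3, Trbv16 and Trbv12-2, and Trbv19 and Trbv2 dropped to rank 8 and 10.

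Averaged over the 4 groups Trav14-1 was the most used alpha segment, but it ranked first only in the thymic groups, and in the spleen was at place 3 (WT) and 16 (CD25 KO). Its share was higher in every thymic than in any splenic mouse. It took 8.67% ± 0.866 (WT) and 9.54% ± 0.834 (CD25 KO) of the alpha counts in the thymus, against 3.44% ± 0.694 (WT) and 2.40% ± 0.350 (CD25 KO) in the spleen. Trav14-2 ranked second in both thymic groups but at place 9 and 14 in splenic WT and CD25 KO mice, with group means of 2.46% to 5.55%. Trav4-4-dv10 was the most used alpha segment in both splenic groups (4.28% ± 0.443 and 4.39% ± 0.267). Trav3-3, Trav4-4-dv10, Trav14n-3 and Trav14d-3-dv8 had group means between 2.75% and 4.39%. Per base of exon, Trav14-1 and Trav14-2 ranked first and second in the mean over all 4 groups, and no order per base was made for each tissue. With all 9 of its members, the Trav14 family took 23.3% ± 1.4 of the alpha counts in thymic WT and 15.4% ± 0.62 in splenic WT mice. Segments without a letter took 72.3% to 76.1% of the alpha counts on average in the 4 groups, those with d 10.02% to 11.4% and those with n 13.3% to 16.3%. Since the copies differ in their unique share, these classes compare countable reads and not use of the copies.

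**Figure D2:**
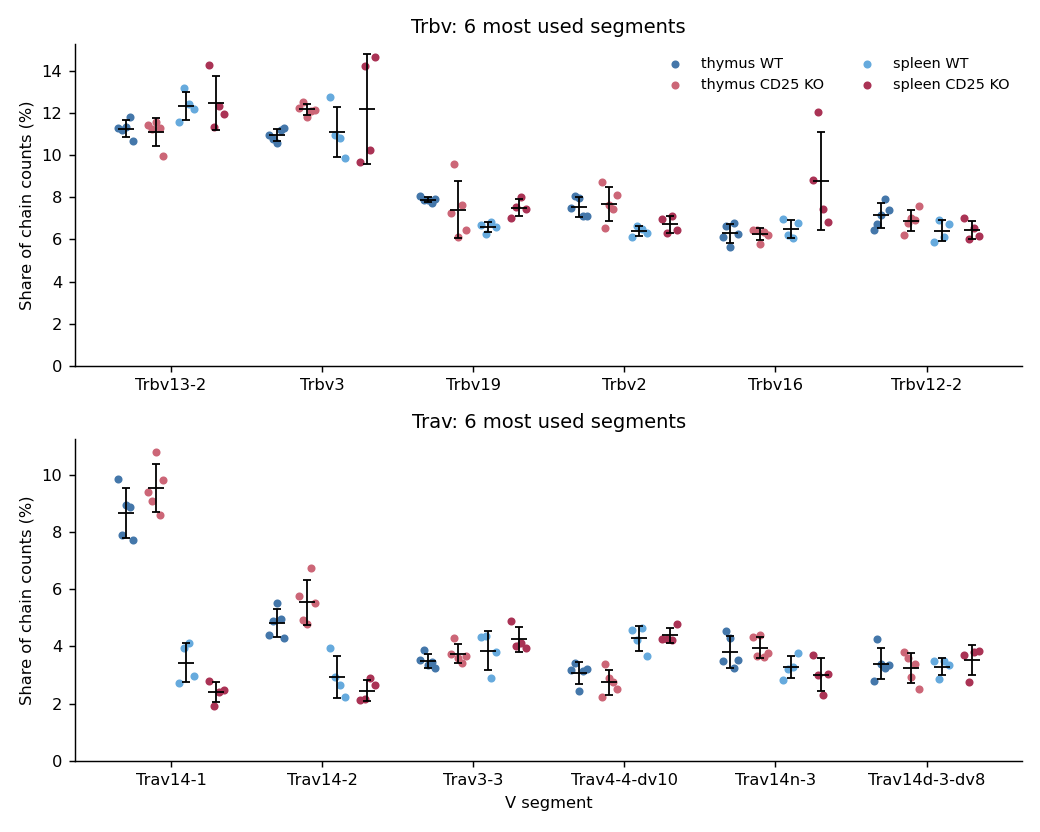
Share of the counts of the chain (%) for the 6 Trbv (top) and the 6 Trav segments (bottom) with the largest mean share, with 1 point per mouse, and the mean ± SD of each group in black. Trav14-1 lies at 7.74% or more in all 10 thymic mice and at 4.12% or less in all 8 splenic mice, and in splenic CD25 KO mice Trbv3 and Trbv16 spread more widely than in the other groups.

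The summed V counts had close means in the thymic groups. Summed Trav counts were 163 ± 14 CPM (WT) and 163 ± 30 CPM (CD25 KO), and summed Trbv counts 350 ± 19 and 347 ± 33 CPM (mean ± SD, n = 5). In the spleen WT mice had 149.6 ± 5.9 CPM and CD25 KO mice 169 ± 11 CPM for Trav, and 408 ± 14 and 450 ± 40 CPM for Trbv (n = 4). In bulk samples such as these, a different number of cells that use a segment and a different amount of RNA per cell cannot be told apart. Among 8 genes for the constant regions and the CD3 signaling chains, 4 were higher in splenic CD25 KO than WT mice at a false discovery rate (FDR) of 0.01 and 0 were lower, whereas 5.98% of all 17463 genes tested were higher and 3.67% lower. These were Trac, the alpha constant region (log2 fold change 0.29), Cd3d (0.23), Cd3e (0.24) and Cd3g (0.27). In the thymus 1 of the 8, Cd3e, was lower (−0.43) and 0 were higher, where 3.49% of 16986 genes were lower and 3.89% higher. Of the 13 V(D)J recombination genes, which cut and join the segments, Prkdc was higher in thymic CD25 KO (0.32) and Hmgb1 in splenic CD25 KO mice (0.22), and 0 were lower in either tissue. Rag1, a subunit of the recombinase, was at 13.96 to 93.1 CPM in thymic WT mice and had 0 counts in all 8 splenic libraries.

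No V segment passed the threshold between CD25 KO and WT Tregs of the thymus. Of the 163 members, 87 passed the filter on low counts in the thymus, and 0 of these differed between CD25 KO and WT by edgeR's quasi-likelihood test at FDR 0.01, neither in counts per library nor in share within the chain. Among all genes 7.36% were called in the fit of shares. At an unadjusted p under 0.05 there were 2 segments in counts per library and 4 in shares, and DESeq2 also called 0 in both. The median absolute log2 fold change of the shares was 0.11 over the 87 segments, against 0.21 over all genes tested. The largest fold change in share was that of Trav2 (0.62 ± 0.28 SE, adjusted p = 0.12). Trbv3 had the smallest adjusted p. Its share was 10.99, 10.8, 10.6, 11.2 and 11.3% in the 5 WT mice and 12.2, 12.6, 11.8, 12.1 and 12.2% in the 5 CD25 KO mice. The groups did not overlap, with a log2 fold change of 0.15 ± 0.050 SE and an adjusted p of 0.043, which missed the threshold. In a fit that removed the trend of each library with GC content, this fold change was −0.01 (adjusted p = 0.92), and across all genes the thymic fold changes fell with GC content (Spearman's rho −0.41). Mean shares in CD25 KO and WT correlated across segments with Pearson's r = 0.99 for both chains (57 Trav and 22 Trbv segments with a mean share of at least 0.5% in a group), given as a description since the shares of a chain depend on each other.

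In splenic Tregs, 3 of the 88 segments that passed the filter had a lower share in CD25 KO than in WT mice at FDR 0.01, and 0 had a higher share. Among all genes 3.69% were lower and 5.98% higher in this fit, so that lower segments were about as frequent as lower genes and higher segments were less frequent than higher genes, a difference that was not tested. The called segments were Trbv29, Trbv31 and Trav7d-3. Their V exons, and those of Trav14-1 and Trav15-1-dv6-1, which turn up in the comparison of the tissues, are given here to identify them. Trbv29 lies on the plus strand at chr6:41271587-41271881, and Trbv31 on the minus strand at chr6:41557693-41557984, beyond the constant region genes, where V segments join by inversion. The last 300 bases of the other exons are shown, from chr14:53554259-53554558 and chr14:53559948-53560247 on the plus strand (GRCm38, GENCODE). Capitals mark the last TGTGC on the coding strand, which holds the cysteine codon that opens the hypervariable CDR3 loop. These letters are in the last 30 bases of 77.3% of the members' V exons and, in the 30 bases before those, of 6.75%.
Trbv29: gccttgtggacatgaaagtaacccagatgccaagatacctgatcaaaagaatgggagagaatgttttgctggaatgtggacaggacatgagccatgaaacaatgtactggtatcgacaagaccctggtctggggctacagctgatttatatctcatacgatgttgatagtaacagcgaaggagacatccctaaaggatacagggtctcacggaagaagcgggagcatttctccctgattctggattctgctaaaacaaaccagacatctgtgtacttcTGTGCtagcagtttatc
Trbv31: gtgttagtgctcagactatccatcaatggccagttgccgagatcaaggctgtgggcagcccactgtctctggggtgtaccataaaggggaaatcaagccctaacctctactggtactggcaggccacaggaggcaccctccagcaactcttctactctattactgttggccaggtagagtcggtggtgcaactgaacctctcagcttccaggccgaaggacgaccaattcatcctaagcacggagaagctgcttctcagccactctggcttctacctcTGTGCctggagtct
Trav14-1: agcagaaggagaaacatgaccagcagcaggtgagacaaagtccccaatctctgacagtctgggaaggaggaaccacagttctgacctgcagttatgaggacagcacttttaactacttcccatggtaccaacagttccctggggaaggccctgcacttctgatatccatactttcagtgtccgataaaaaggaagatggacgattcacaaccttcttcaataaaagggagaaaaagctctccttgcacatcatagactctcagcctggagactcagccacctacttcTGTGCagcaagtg
Trav15-1-dv6-1: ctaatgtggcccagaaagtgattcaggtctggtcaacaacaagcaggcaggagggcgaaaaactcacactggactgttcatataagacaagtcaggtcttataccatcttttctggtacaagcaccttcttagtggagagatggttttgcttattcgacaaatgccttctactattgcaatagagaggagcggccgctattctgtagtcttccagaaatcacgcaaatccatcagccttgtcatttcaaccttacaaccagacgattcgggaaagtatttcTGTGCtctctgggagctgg

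The Trbv29 share was 2.67, 3.52, 4.001 and 2.49% in the 4 splenic WT mice and 1.64, 2.26, 1.81 and 1.89% in the 4 CD25 KO mice. Every CD25 KO mouse lay below every WT mouse, with a log2 fold change of −0.74 ± 0.15 SE and an adjusted p of 0.0020. Trbv29 stayed past the threshold in each of 15 alternative fits, including those without any 1 mouse (log2 fold change −0.84 to −0.61). Thymic shares were 2.60% ± 0.416 (WT) and 2.71% ± 0.425 (CD25 KO).

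The splenic Trbv31 shares were 4.84, 5.69, 6.18 and 5.76% with CD25 and 4.40, 3.91, 4.88 and 4.38% without it. The highest CD25 KO mouse (4.88%) lay at the level of the lowest WT mouse (4.84%), and the log2 fold change was −0.36 ± 0.087 SE (adjusted p = 0.0075). For Trav7d-3 the shares were 0.698, 0.870, 0.572 and 0.780% in WT and 0.284, 0.379, 0.369 and 0.379% in CD25 KO mice, which did not overlap. Its log2 fold change was −1.04 ± 0.26 SE (adjusted p = 0.0079), based on only 13 to 36 counts per mouse. Trav7-3, with which Trav7d-3 shares most of its sequence, had a WT mean of 1.51% ± 0.461 and a CD25 KO mean of 1.58% ± 1.14. With the copies summed, no Trav group was called. Trbv31 missed the threshold in 8 of 15 alternative fits (adjusted p up to 0.037) and Trav7d-3 in 7 of 14 (up to 0.036). Without splenic WT mouse 2, splenic WT mouse 4, splenic CD25 KO mouse 2 or splenic CD25 KO mouse 4, only 1 segment remained past the threshold each time. Of the 5 gamma-delta T cell genes, 2 of 4 tested were lower in splenic CD25 KO mice, Tcrg-C1 (log2 fold change −1.75) and Tcrg-C4 (−1.14), with a summed level of 9.34 to 11.6 CPM (WT) and 5.62 to 8.20 CPM (CD25 KO). The 4 myeloid markers summed to 10.8 to 17.6 CPM (WT) and 15.97 to 21.5 CPM (CD25 KO), with 1 of 3 tested higher. This was Lyz2, at 6.17 ± 2.3 CPM (WT) and 12.6 ± 1.7 CPM (CD25 KO), while the means of Csf1r (6.45 and 5.48 CPM), Adgre1 (1.47 and 0.843 CPM) and Cd14 (0.197 and 0.0702 CPM) lay lower in CD25 KO mice and none of these was called. The 3 invariant NKT cell genes summed to 0.366 to 2.71 CPM (WT) and 3.45 to 6.13 CPM (CD25 KO). Of these, 1 was tested and 0 were called (Klrb1c, log2 fold change 1.90, adjusted p = 0.035). The part of these lists in the V segment shares was not tested.

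In counts per library, 2 of 88 splenic segments were higher in CD25 KO mice, Trbv19 (log2 fold change 0.33 ± 0.072 SE, adjusted p = 0.0036) and Trav8d-2 (0.82 ± 0.21 SE, adjusted p = 0.0098), and 0 were lower. Among all genes 5.98% were higher and 3.67% lower in this fit. The median fold change over the 88 segments was 0.15, against −0.01 over all genes, alongside the rise of Trac and the CD3 genes. As a share of their chains, Trbv19 went from 6.59% ± 0.253 to 7.51% ± 0.410 and Trav8d-2 from 0.998% ± 0.278 to 1.54% ± 0.189, and neither passed the threshold (adjusted p = 0.052 and 0.043). Without splenic WT mouse 1, splenic WT mouse 2 or splenic CD25 KO mouse 4, 0 segments passed in counts per library, and without splenic WT mouse 3, splenic WT mouse 4 or splenic CD25 KO mouse 2, only 1 did.

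**Figure D3:**
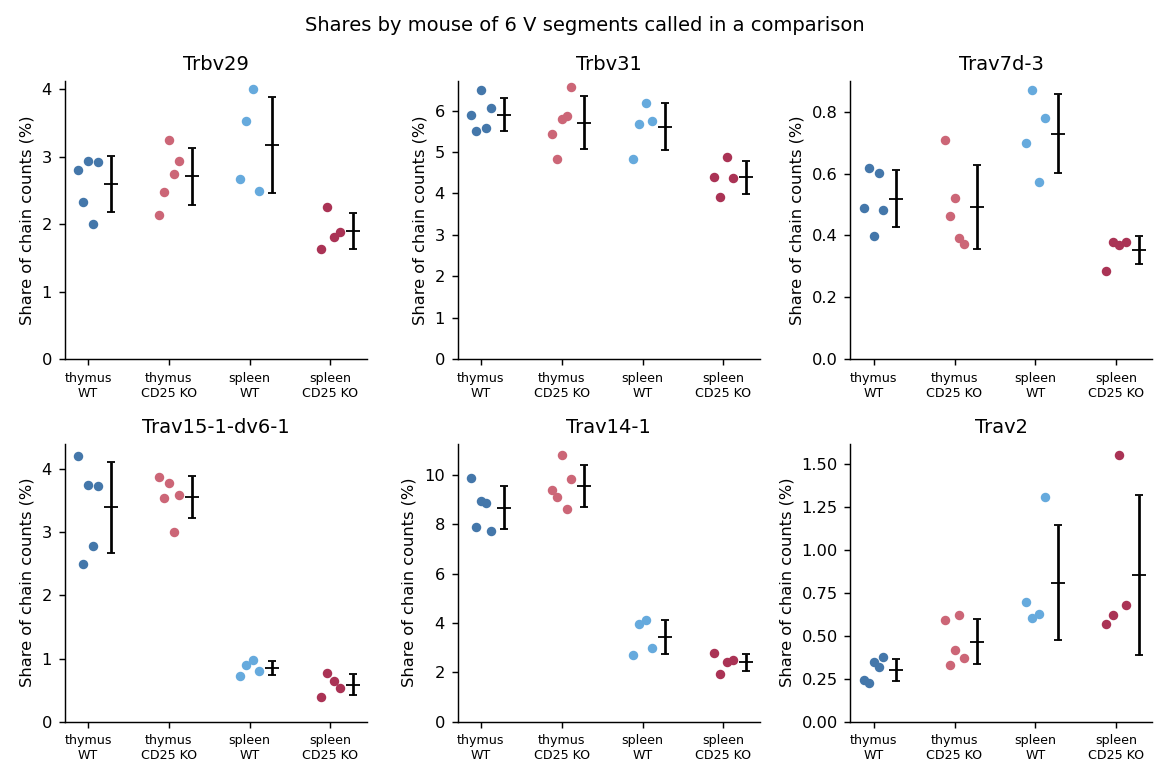
Share of the counts of the chain (%) by mouse in the 4 groups for 6 V segments that were called in a comparison, with the mean ± SD of each group beside the points. Trbv29 and Trav7d-3 lie lower in all 4 splenic CD25 KO mice than in all 4 splenic WT mice, and Trav15-1-dv6-1 and Trav14-1 lie lower in all 8 splenic than in all 10 thymic mice.

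Splenic CD25 KO mice differed most from each other. A segment was taken as high in 1 mouse where its share there was at least 2 times the median share of the other mice of its group, on at least 50 counts, a rule set after the values were seen. This was met by 10 segments in splenic CD25 KO mice, 9 Trav and 1 Trbv, and by 0 in the other 3 groups. Splenic CD25 KO mice also had more segments with 50 counts in a mouse, 69 against 48 to 55 in the other groups. With each library thinned to the same chain total, there were 5 in splenic CD25 KO mice and 0 in the others. At a ratio of 1.5 there were 24 in splenic CD25 KO, 7 in splenic WT and 8 in thymic CD25 KO mice, and with at least 20 counts 12, 3 and 2. The highest ratio was 3.34 in splenic CD25 KO mice, 1.78 in splenic WT, 1.90 in thymic CD25 KO and 1.49 in thymic WT mice. Mouse 1 held 4 of the segments, mouse 2 held 3, mouse 3 held 1 and mouse 4 held 2.

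Trav13-1 was the most abundant of them. Its share was 2.43, 8.27, 2.93 and 3.58% in the 4 splenic CD25 KO mice, so that mouse 2 stood at 415 counts and 8.27%, whereas the WT mice had 2.99, 3.31, 2.54 and 2.81%. Trav7-3 was at 3.27% in the same mouse against at most 1.17% in the other CD25 KO mice, and Trav13n-4 at 1.65% against at most 0.795%. Mouse 4 stood out in Trav6n-6 with 5.04%, against 1.69% to 2.08% in the other 3 CD25 KO mice and 1.45% to 2.49% in WT mice, and in Trav6-3 with 1.46%. Mouse 1 was high in Trav4-3 with 4.77% (at most 2.39% in the others), in Trav8-2 with 1.23%, in Trbv30 with 0.983% and in Trav6-2 with 1.14%. For Trav6-2 the WT mice reached 1.43%, so that the other CD25 KO mice were the low ones. Mouse 3 had the highest share of Trav2 (1.55% against at most 0.681% in the other CD25 KO mice). Splenic WT mouse 4 was also high in Trav2, with 1.31% on 47 counts. Among the abundant beta segments, Trbv16 was at 8.85, 12.04, 7.44 and 6.83% and Trbv3 at 9.68, 14.3, 10.3 and 14.7% in the 4 CD25 KO mice, against 6.96, 6.22, 6.08 and 6.77% and 12.8, 10.99, 10.8 and 9.90% in WT mice. The rule looks for segments that stand out in 1 mouse, and each of the 10 segments met it in only 1 mouse. Trbv3 did not meet it, and its shares were highest in mouse 2 and mouse 4.

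**Figure D4:**
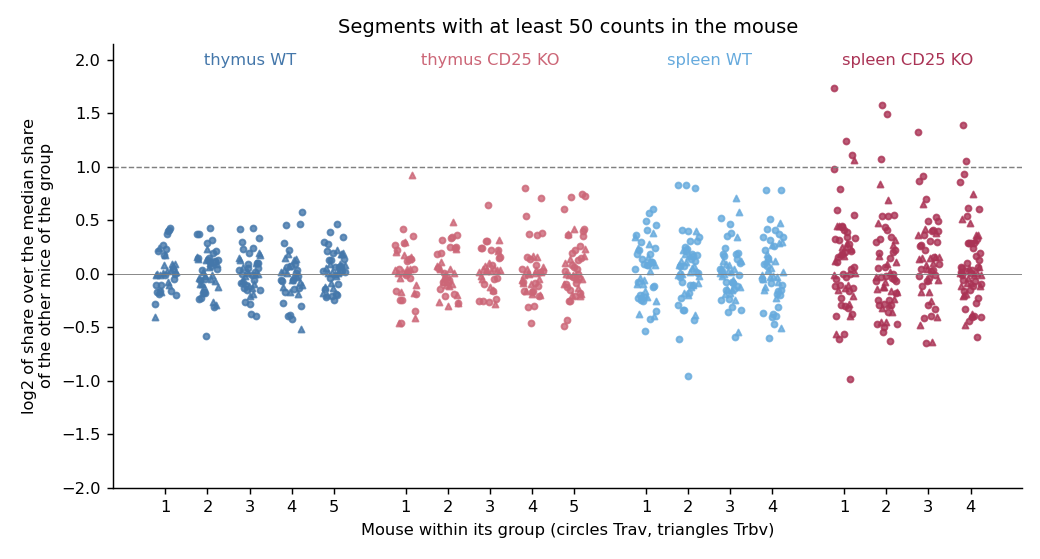
log2 of the share of each segment in a mouse over the median share in the other mice of its group, for segments with at least 50 counts in that mouse, with Trav as circles and Trbv as triangles. Only splenic CD25 KO mice have points above the dashed line at a ratio of 2, where 10 points lie.

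The spread between mice of a group was measured as Pearson's chi-square of the counts around the pooled shares of the group, divided by its degrees of freedom, which is 1 when only counting error is present. For Trav it was 1.49 (WT) and 1.86 (CD25 KO) in the thymus, and 2.34 (WT) and 6.95 (CD25 KO) in the spleen. For Trbv the values were 1.82, 2.92, 4.72 and 14.4 in the same order. With each library thinned to the smallest chain total of any sample, the Trbv value of splenic CD25 KO mice was 8.36, and the order of the groups was the same. Trav13-1 gave 17.6% of the Trav sum in splenic CD25 KO mice, and Trbv16 and Trbv3 gave 25.1% and 20.7% of the Trbv sum. The mean distance between the share profiles of mice (the percentage points that would have to move from segment to segment) was 15.7 points for Trav within splenic CD25 KO and 11.6 points within splenic WT mice, and 14.1 points between the genotypes. For Trbv the 3 distances were 8.72, 5.53 and 8.42 points. In the thymus they were 10.8, 9.48 and 10.1 points for Trav and 5.03, 3.75 and 5.20 points for Trbv. For both chains and tissues, the distance between the genotypes was larger than that within WT mice, and except for Trbv in the thymus it was smaller than that within CD25 KO mice.

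Evenness of use was described by the effective number of segments, the number of equally used segments with the same Shannon entropy. For Trbv in the spleen it was 16.8 ± 0.14 (WT) against 16.2 ± 0.30 (CD25 KO; mean ± SD, n = 4), and each CD25 KO mouse (15.7 to 16.4) lay below each WT mouse (16.6 to 16.96). Splenic Trav gave 53.6 ± 0.72 (WT) and 51.6 ± 2.0 (CD25 KO), with overlapping ranges. In the thymus it was 50.4 ± 1.0 (WT) and 48.7 ± 0.91 (CD25 KO) for Trav, and 16.8 ± 0.19 and 16.8 ± 0.18 for Trbv. These values are descriptions, and no test was run on them.

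The effect of CD25 KO was compared between the tissues in 1 fit of all 18 samples. Of 90 segments, 0 differed at FDR 0.01 in counts per library and 0 in shares, where 7.1% of all 18686 genes tested did. At an unadjusted p under 0.05 there were 11 and 13 segments. Trbv29 came closest in shares, with a splenic minus thymic log2 fold change of −0.80 ± 0.21 SE and an adjusted p of 0.014 (0.0042 to 0.040 over 25 alternative fits). Trav14-1 followed at −0.66 ± 0.18 SE and an adjusted p of 0.016. DESeq2 called both of them and 0 others in shares, and it called 1 segment in counts per library. A different effect on Trbv29 in the 2 tissues was therefore not shown at this threshold.

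More V segments were called between WT Tregs of the thymus and spleen than between CD25 KO and WT Tregs, and so were more genes in general. In shares, 7 of 90 segments were higher and 9 lower in splenic WT than in thymic WT mice at FDR 0.01, whereas 21% of all genes were higher and 19.5% lower. Segments were thus called less often than genes in either direction, a difference that was not tested. Most called segments were Trav, with 6 higher and 8 lower of 66, and the 24 Trbv segments gave 1 in each direction. The 2 segments with the smallest adjusted p are neighbors. Trav15-1-dv6-1 (GRCm38 chr14:53559632-53560247) lies next to Trav14-1 (chr14:53554022-53554558), and both have only unique 75-base stretches.

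The Trav15-1-dv6-1 share was 4.21, 2.501, 3.75, 2.79 and 3.74% in thymic WT and 0.722, 0.895, 0.972 and 0.807% in splenic WT mice, a log2 fold change of −1.998 ± 0.19 SE (adjusted p = 9.3e-09). Trav14-1 was at 9.86, 7.90, 8.96, 8.87 and 7.74% in thymic WT and 2.72, 3.94, 4.12 and 2.98% in splenic WT mice (−1.33 ± 0.13 SE, adjusted p = 1.4e-08). For both segments, every splenic WT mouse was below every thymic WT mouse. In CD25 KO mice Trav15-1-dv6-1 was at 3.87, 3.55, 3.78, 3.001 and 3.59% in the thymus and 0.394, 0.777, 0.640 and 0.530% in the spleen, again without overlap. Trav15-2-dv6-2 (−1.14 ± 0.22 SE), Trav6d-5 (−1.26 ± 0.28 SE), Trav7-5 (−0.90 ± 0.17 SE) and Trav13n-4 (−0.84 ± 0.26 SE) were also lower in splenic WT mice, with adjusted p values of 0.00019, 0.00070, 0.00012 and 0.0094. Trav13n-4 missed the threshold in 13 of the 18 fits that left out 1 mouse (adjusted p up to 0.031). Among the segments with a higher share in the spleen, Trav2 had the largest fold change. Its share was 0.244, 0.223, 0.347, 0.317 and 0.376% in thymic WT and 0.698, 0.604, 0.629 and 1.31% in splenic WT mice, on 8 to 47 counts (1.41 ± 0.34 SE, adjusted p = 0.0014). Without splenic WT mouse 4 the adjusted p was 0.013. Trav21-dv12 was higher as well, at 1.26% ± 0.269 in thymic WT and 2.27% ± 0.311 in splenic WT mice (0.85 ± 0.21 SE, adjusted p = 0.0017).

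**Figure D5:**
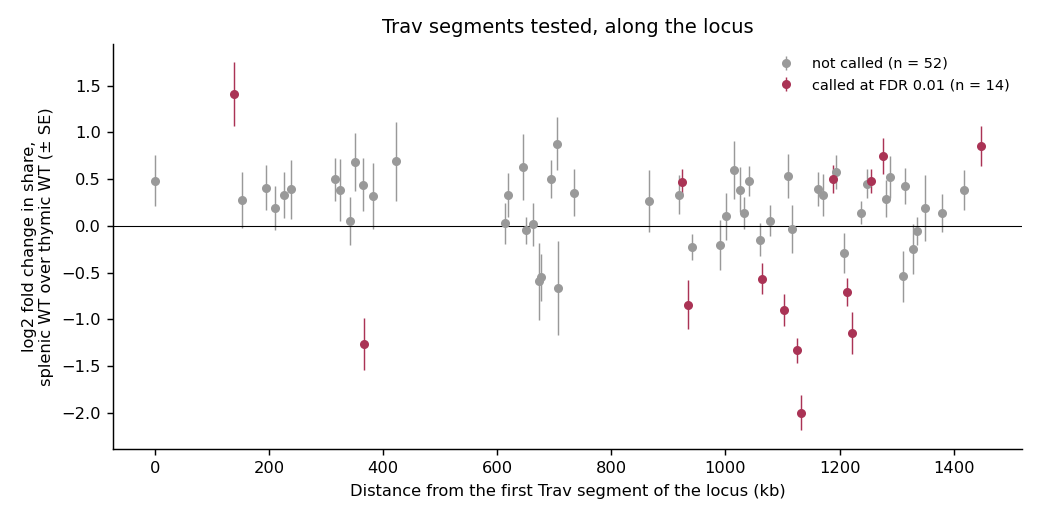
log2 fold change in share (splenic WT over thymic WT, ± SE) of the 66 Trav segments tested, against the distance of the segment from the first Trav segment of the locus (kb). Trav15-1-dv6-1 (−1.998) and Trav14-1 (−1.33) lie side by side at the bottom, and called segments of either direction lie among segments that were not called.

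The fall in the spleen was not shared by all segments that the delta chain can also use. Of 10 segments with dv in the symbol 8 were tested, of which 2 were lower (Trav15-1-dv6-1 and Trav15-2-dv6-2), 2 higher (Trav21-dv12 and Trav4-4-dv10) and the other 4 not called. Genes of other cell types also differed between the WT groups. Of the 8 markers of double-positive thymocytes, the stage at which alpha chains are rearranged, 7 were lower in counts per library and 0 higher in splenic than thymic WT mice, against 19.5% and 21% of all genes. Their summed level was 47.7 to 208 CPM in thymic WT and 17.3 to 21.4 CPM in splenic WT mice, with Rag1 and Ptcra at 0 counts in the latter. Of 5 gamma-delta T cell genes, 3 were lower and 0 higher, among them Trdc, the delta constant region (10.9 ± 1.5 CPM in thymic WT and 4.92 ± 0.67 CPM in splenic WT mice). The means of Tcrg-C1 (1.38 and 2.06 CPM) and Tcrg-C4 (1.80 and 2.50 CPM) lay higher in splenic WT mice, and neither was called. The summed level of the list was 15.4 to 20.96 CPM in thymic WT and 9.34 to 11.6 CPM in splenic WT mice. Of 3 invariant NKT cell genes, Zbtb16 was lower and Klrb1c higher, with a summed level of 0.274 to 9.78 CPM in thymic WT and 0.366 to 2.71 CPM in splenic WT mice. Both CD8 T cell markers were lower, with a summed level of 19.6 to 52.6 CPM and 7.80 to 9.45 CPM. The 4 B cell markers summed to more in the spleen (10.9 to 14.1 CPM in thymic WT and 18.5 to 20.6 CPM in splenic WT mice), with Cd79b higher (log2 fold change 1.73) and Cd79a lower (−0.47). Of the myeloid markers Csf1r was higher (1.08) and 0 were lower, with a summed level of 3.29 to 19.5 CPM and 10.8 to 17.6 CPM. The part of these cells in the difference of the V segments was not tested. The TCR constant and CD3 genes held 2 that were higher (Trac and Trat1) and 0 that were lower, and of the V(D)J recombination genes 5 of 13 were lower (Rag1, Rag2, Dntt, Xrcc6 and Lig4) and 0 higher.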

How the data were processed

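RNA of sorted Tregs from 18 mice was sequenced as paired reads of 75 bases. The authors aligned the reads with STAR 2.5.0b to GRCm38 and deposited raw counts per gene from featureCounts 1.5.0, without normalization. Gene names, positions and exon sequences were taken from GENCODE M21. Each sample is a separate mouse, and 17239774 to 32639570 counts per library limit the precision of low segments. Genotypes were compared separately in thymus and spleen, their effects between tissues, and splenic with thymic WT, by edgeR 4.0.16 (quasi-likelihood, robust, filterByExpr, TMM) in R 4.3.3 over all genes, with Benjamini-Hochberg adjustment and an FDR threshold of 0.01. For shares, the V segments had the log of the chain total as offset. SEs are those of the log2 fold change. Named are the 6 most used segments per chain, at most the 8 largest called changes in share per comparison, Trav1, Trav11, Trav11d, copies of the most used duplicated segments, and fixed gene lists. The segments high in 1 mouse and their examples were chosen after the values were seen. Members and lists were chosen with earlier results of these data known. Alternatives were DESeq2 1.42.0, other normalization and filters, GC correction, summed copies, functional genes only and leaving out mice. The fits were tested on simulated data.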

Additional observations from a re-analysis of the deposited data

Results flagged for a closer look

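In groups of 4 or 5 mice, 16 of 144 sets of values held a mouse far from the others by Dixon's 95% criterion, where chance gives about 1 in 20, or 7.2, and several of these segments had been chosen because 1 mouse was high. In splenic CD25 KO mice, mouse 1 was lowest in Trav7d-3 (0.284% of its chain) and highest in Trav6-2 (1.14%) and Trbv30 (0.983%). Mouse 2 of that group was lowest in Trav14d-3-dv8 (2.75%) and highest in Trav13n-4 (1.65%) and Trav7-3 (3.27%). Mouse 3 was highest in Trav2 (1.55%) and Trav7-5 (3.08%), and mouse 4 in Trav4-4-dv10 (4.79%) and Trav6n-6 (5.04%). Among splenic WT mice, mouse 4 was highest in Trav2 (1.31%). In thymic WT mice, mouse 3 was lowest in Trav4-4-dv10 (2.43%) and mouse 4 highest in Trav13n-4 (1.52%). Among thymic CD25 KO mice, mouse 5 was lowest in Trbv13-2 (9.95%) and highest in Trav8-2 (1.29%), and mouse 3 had the lowest effective number of Trav segments (47.2).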

How the results depend on the processing

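Of 364 alternative values for 69 results, 297 were the same as the main value or moved little. For called segments, only their number was compared here, not which segments they were or their direction. Losses of a call by single segments, such as Trbv31 and Trav7d-3 above, are not part of these numbers. In the spleen, the 2 segments called in counts per library became 6 at FDR 0.05, 1 with RLE normalization, 4 with DESeq2, 6 without a filter on low counts, 1 with duplicated copies summed and 0 in a fit of all 18 samples, and 0 to 2 when 1 mouse was left out. The 3 called in shares became 5 at FDR 0.05, 5 without the filter and 1 to 2 without 1 mouse. The thymic count in shares went from 0 to 1 at FDR 0.05. For the difference between tissues in counts per library, 0 became 3 at FDR 0.05, 1 with DESeq2, 1 without thymic CD25 KO mice 2 and 4, 1 with the GC trend removed and 0 to 1 without 1 mouse. In shares, 0 became 2 at FDR 0.05, 2 with DESeq2, 1 without the filter, 2 without thymic CD25 KO mice 2 and 4, and 0 to 1 without 1 mouse. The cause of these changes was not tested.

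The thymic fold change of Trbv3 went from 0.15 to −0.0102 with the GC trend removed, and to −0.0101 with the replicate block and the GC trend removed. With the replicate block, 0 segments were called in the thymus. Thymic mice of the same number did not deviate together (r from −0.18 to 0.11 over 5 pairs), so the numbers were not taken as pairs.

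With copies summed, the effective number of Trav segments was 33.2, 32.3, 34.9 and 33.4 in thymic WT, thymic CD25 KO, splenic WT and splenic CD25 KO mice, and with functional genes only 47.1, 45.7, 51.3 and 49.0, and for Trbv 16.4, 16.3, 16.4 and 15.8. With copies summed, Trav distances were 8.19 points within thymic WT, 8.496 within thymic CD25 KO, 8.37 between these, 9.66 within splenic WT, 11.7 between the splenic genotypes and 17.8 between the WT tissues. Without TMM, summed counts in splenic WT mice were 143 CPM for Trav and 389 CPM for Trbv. Per length, pseudogenes took 3.13%, 2.86% and 1.78% of Trav in thymic WT, thymic CD25 KO and splenic WT mice, and 0.831%, 0.848%, 0.669% and 0.705% of Trbv in the 4 groups. Thinned, the Trbv spread in splenic CD25 KO mice was 8.36. By rules chosen after seeing the data, segments high in 1 mouse numbered 8, 7 and 24 in thymic CD25 KO, splenic WT and splenic CD25 KO mice at a ratio of 1.5, 2 and 3 in thymic CD25 KO and splenic WT mice with at least 20 counts, and 5 in splenic CD25 KO mice after thinning. Segments without a unique stretch and those with few counts limit what depth can show.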

Other observations

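Pseudogenes, which give no functional chain, also held counts. Trbv24 had the most, with 757 over the 18 samples, followed by Trav8-2 with 539, Trav9n-1 with 199, Trav11n with 188 and Trbv12-3 with 166. As a group, the 20 Trav pseudogenes took 2.42% ± 0.37 (WT) and 2.31% ± 0.25 (CD25 KO) of the alpha counts in the thymus, and 1.43% ± 0.042 (WT) and 1.80% ± 0.50 (CD25 KO) in the spleen, given as mean ± SD. The 13 Trbv pseudogenes took 0.714% ± 0.065, 0.713% ± 0.049, 0.579% ± 0.062 and 0.605% ± 0.088 of the beta counts in the same order. No test was run on these shares.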
